A study of Homo sapiens with 6 samples.

Results

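Metallothioneins were compared between U87 glioma cells that carried full-length IL-33, IL-33 without its nuclear localization signal, or an empty vector. All probe sets of the array whose only gene symbol was MT1E, MT1F, MT1G, MT1H, MT1M, MT1X, MT2A, MT3 or MTF1 were taken, which gave 20 probe sets of 9 genes among 49395 probe sets, of which 44994 had 1 symbol, and 18132 genes. U87 is an established human glioma line, and its transfected lines were kept under drug selection. The arrays held 3 clones with IL33 (clones 3, 5 and 9), 2 clones with IL33 DNLS, the construct without the nuclear localization signal (clones 3 and 4), and 1 control line with the empty pcDNA vector, which is not labelled as a clone. Expression was measured on 6 Affymetrix PrimeView arrays, and levels are the deposited values on a log2 scale, so that a difference of 1 is a 2-fold change. Clones of 1 construct served as replicates, and nothing says that they were grown and hybridised apart, so the p-values reflect the spread among clones, which may be partly technical. The control was 1 array and took its spread from the clones.

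Metallothioneins are small cysteine-rich proteins that bind zinc and copper, buffer free metal, and bind cadmium and other toxic metals. Their genes lie side by side on chromosome 16, and most are switched on by metals through MTF1, a zinc finger transcription factor that senses zinc and binds metal response elements in their promoters. Glucocorticoids and oxidative stress also raise several of them. In the brain MT1 and MT2 are known mainly from astrocytes, while MT3, first described as a growth inhibitory factor, is found in neurons and astrocytes.

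The IL33 transcript was examined first, since it checks the labels. On the probe set 11743859_x_at IL33 was at 8.38, 6.40 and 9.50 in IL33 clones 3, 5 and 9, at 6.50 and 6.62 in DNLS clones 3 and 4, and at 3.46 in the control. On each of the 3 IL33 probe sets the control was lowest, and IL33 clone 5 had the lowest level of the IL33 clones on each. IL33 minus control passed on 11751426_a_at (3.81 ± 0.69 SE, adjusted p = 0.0326 in limma) and not on the others (adjusted p = 0.0563 and 0.0555). DNLS minus control and IL33 minus DNLS passed on none. On 11743858_at and 11743859_x_at IL33 clone 5 lay below both DNLS clones. The levels thus set the control apart, and the constructs apart only on 11751426_a_at. A level was called above background when it passed 4.80 (log2), the 95th percentile of 340 olfactory receptor genes. Between 64.5% and 65.3% of genes lay above it on the IL33 and control arrays, and 61.8% and 62.2% on the DNLS arrays. The median of all probe sets was 5.61 to 5.62 on the IL33 and control arrays and 5.43 on both DNLS arrays. A lower set of values and the DNLS construct thus came on the same arrays, and their parts in a difference cannot be told apart. Of 10 glioma cell markers 7 had a mean above background, VIM, CD44, FN1 and SPARC among them, while S100B, OLIG2 and AQP4 did not. At an adjusted p under 0.05, 0 were higher and 1 lower in IL33 minus control, 0 and 2 in DNLS minus control, and 3 and 5 in IL33 minus DNLS. Shares over all genes are given with the gene lists below. The 1 was NES (-1.70 ± 0.29 SE, adjusted p = 0.0294 in limma). OLIG2 was above background in the control alone, at 5.23, and was among the 2 (at least 1.35-fold lower, adjusted p = 0.00383). Of 6 myeloid cell markers CSF1R alone had a mean above background, and PTPRC lay between 2.14 and 2.25 on all arrays. CSF1R, the receptor of a macrophage growth factor, was at 6.04, 5.87 and 5.87 in IL33 clones, 5.21 and 5.32 in DNLS clones and 7.84 in the control, the order of MT3 below (IL33 minus control -1.91 ± 0.13 SE, adjusted p = 0.00397 in limma; DNLS minus control -2.58 ± 0.14 SE, adjusted p = 0.000877). ITGAM, below background on all arrays, went the other way (0.53 ± 0.11 SE, adjusted p = 0.0432, and 0.45 ± 0.12 SE, adjusted p = 0.0261). AIF1 passed as lower in DNLS minus control alone (-0.63 ± 0.15 SE, adjusted p = 0.0223). The median difference of the 6 markers was 0.04 in IL33 minus control and -0.14 in DNLS minus control. Their summed unlogged level, in which CSF1R weighs most, was 6.95 to 7.12 in IL33 clones, 6.46 and 6.56 in DNLS clones and 8.18 in the control (log2). All 4 measured neuron markers had a mean above background, and their summed level was 8.66 to 8.78 in IL33 clones, 7.88 and 8.06 in DNLS clones and 7.90 in the control. One of them, SYT1 of synaptic vesicles, was below background in the control at 3.18, and at 6.46, 7.20 and 6.04 in IL33 clones and 5.67 and 5.59 in DNLS clones. SYT1 was at least 3.4-fold higher than the control in IL33 clones (measured 3.38 ± 0.41 SE, adjusted p = 0.0136) and at least 1.77-fold higher in DNLS clones (measured 2.45 ± 0.43 SE, adjusted p = 0.00851, but 0.0886 and 0.083 without DNLS clone 3 or 4), whereas RBFOX3, SNAP25 and STMN2 did not pass against the control. The part of these markers in the metallothionein results was not tested. All arrays came from cultures of the U87 line, so a marker named for another cell type does not count cells of that type here. In RNA of whole cultures, fewer cells with a transcript and less RNA per cell cannot be told apart.

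Of the 20 probe sets, 15 were above background on all 6 arrays, 2 were below it on all of them (MT1G 11717386_s_at and MT1H 11731857_x_at), and 3 changed sides between arrays (both of MT3 and 11722391_at of MTF1). Metallothionein genes are near copies of each other. The array's names mark this: 11 of the 15 metallothionein probe sets end in _x_at or _s_at, which means that some or all of their probes also match other transcripts. MT1M (11728397_at), MT1G (11717385_a_at), MT1X (11726385_a_at) and MT3 (11722608_at) each had 1 probe set without that mark, and all 5 probe sets of MTF1 had none. The signal of the others may hold RNA of related genes.

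**Figure D1:**
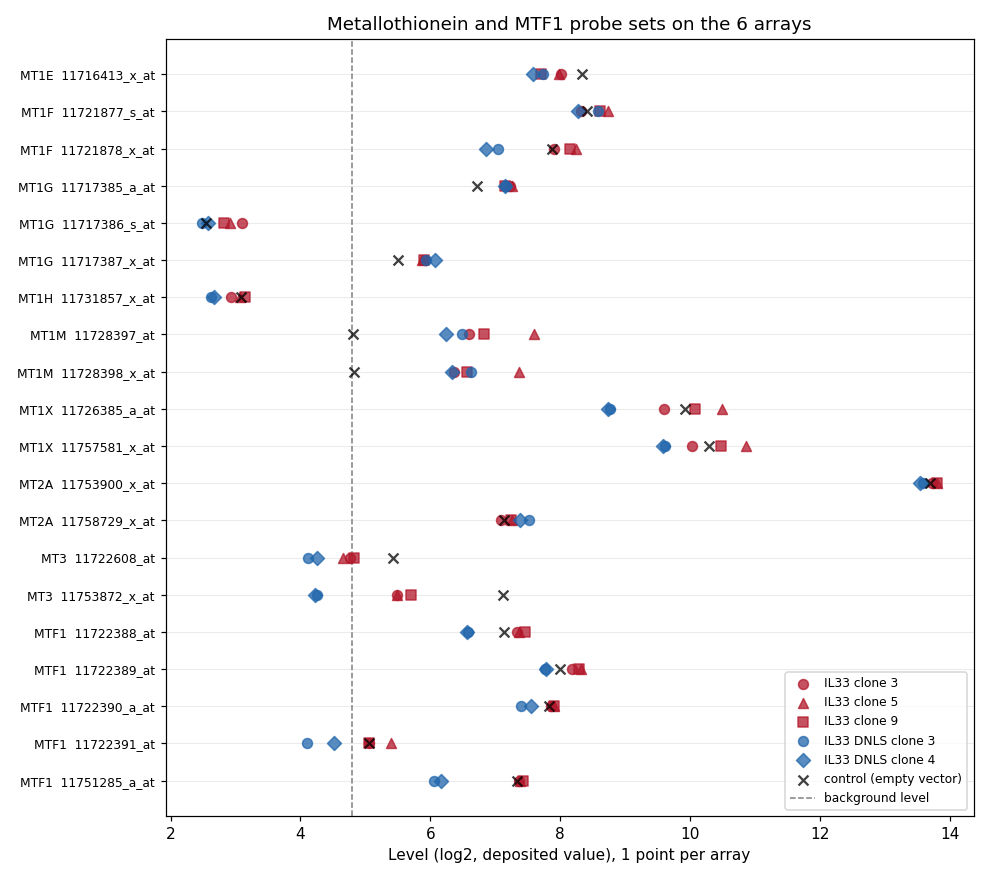
Levels (log2, horizontal axis) of the 20 probe sets of 8 metallothioneins and MTF1 (rows), with 1 point for each of the 3 IL33 clones, 2 DNLS clones and the control; the dashed line is the background level of 4.80. MT1M in the control sits at 4.81 and 4.82, left of all clones, whereas MT3 in the control, at 5.43 and 7.12, sits right of all clones.

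In IL33 clones against the control, MT1M rose and MT3 fell, and the other 7 genes did not pass the test. Of 20 probe sets 2 were higher and 2 were lower at an adjusted p under 0.05 in limma (Benjamini-Hochberg over 49395 probe sets), where 3.2% of all probe sets were higher and 4.09% were lower. In DNLS clones against the control 4 of 20 were higher (both of MT1M and 2 of MT1G) and 8 were lower (both of MT3, 2 of MTF1, and 1 each of MT1E, MT1F, MT1H and MT1X), where 13.7% of all probe sets were higher and 25.7% were lower. In IL33 against DNLS clones 13 were higher and 0 were lower, with 31.8% higher and 15.2% lower among all. At an unadjusted p under 0.05, 8, 14 and 13 of the 20 probe sets passed in these comparisons. Over all 49395 probe sets 12804, 24649 and 27416 passed at that level. The median difference of the 20 probe sets was 0.14, -0.40 and 0.45 in these comparisons, beside 0.02, -0.12 and 0.14 over all probe sets. Without DNLS clone 3 or DNLS clone 4, 0 of the 49395 probe sets passed in IL33 minus control (smallest adjusted p = 0.101 in limma), so that every call of IL33 clones against the control given here needed both DNLS clones in the fit, and 1 of the 20 passed without IL33 clone 9. In DNLS minus control fewer of the 20 passed without DNLS clone 3 or 4, and so did fewer of all probe sets. Both MT3 probe sets and MTF1 11751285_a_at passed in either case. In IL33 minus DNLS fewer passed as well, of the 20 and of all probe sets. Among those that passed were MT1F 11721878_x_at, both of MT3 and 3 of MTF1 in either case. The comparisons share their arrays, so that their counts are not independent of each other.

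**Figure D2:**
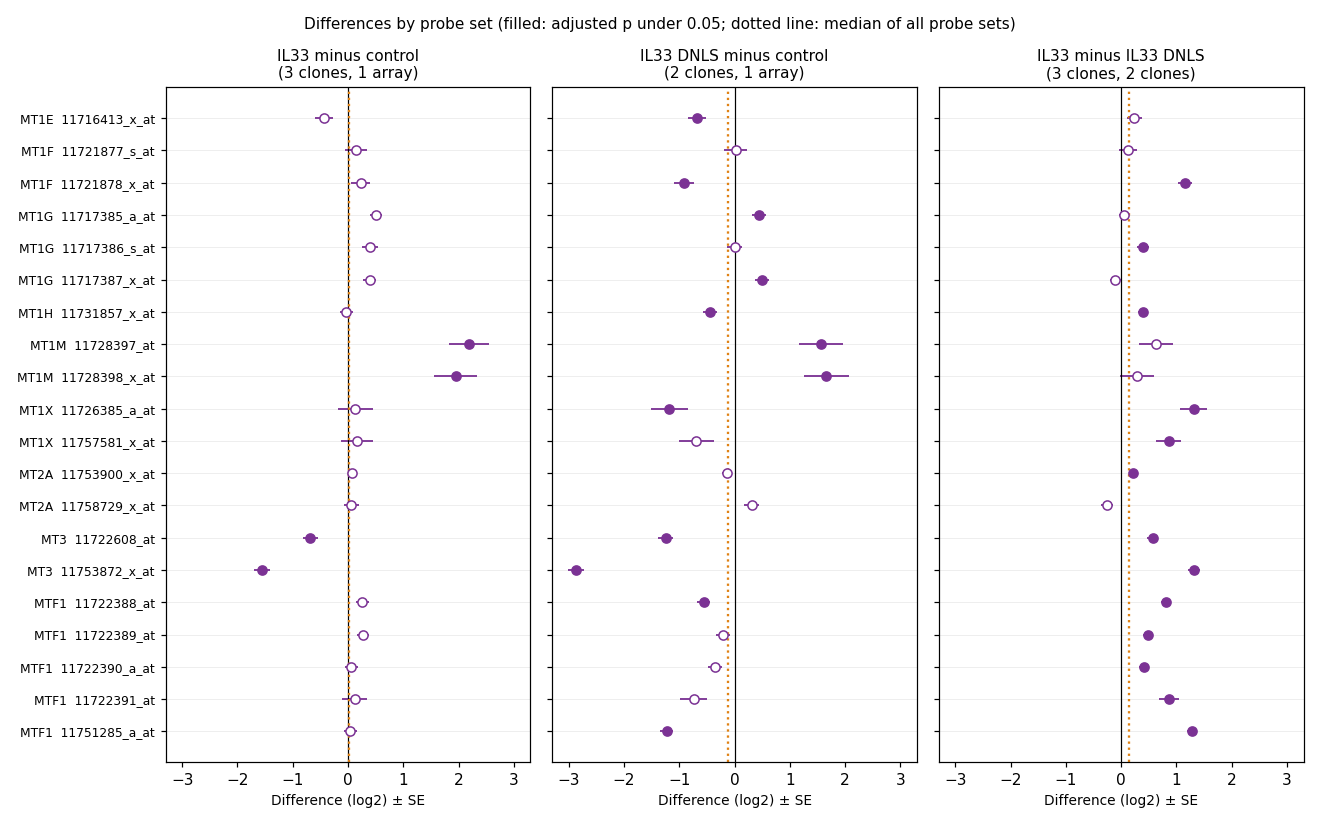
Differences (log2) with standard errors of the 20 probe sets (rows) in IL33 minus control, DNLS minus control and IL33 minus DNLS (panels); filled points passed an adjusted p under 0.05 in limma, and the dotted line is the median of all 49395 probe sets. MT1M lies right of 0 against the control in both constructs, at 2.19 and 1.95 in IL33 and 1.56 and 1.66 in DNLS, and MT3 lies left of 0 in both.

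MT1M encodes a metallothionein of the MT1 group. On 11728397_at its level was 6.59, 7.59 and 6.82 in IL33 clones 3, 5 and 9, 6.49 and 6.24 in DNLS clones 3 and 4, and 4.81 in the control. All 5 clones lay above the control by more than the whole range among the clones, and the control lay just above background. The level averaged 7.0 ± 0.522 in IL33 clones (SD, n = 3), 6.36 ± 0.177 in DNLS clones (SD, n = 2) and 4.81 in the control (n = 1). This was 4.57-fold higher in IL33 clones than in the control (2.19 ± 0.37 SE on the log2 scale, adjusted p = 0.0294 in limma). In DNLS clones it was 2.94-fold higher than in the control (1.56 ± 0.40 SE, adjusted p = 0.026). On the second probe set, 11728398_x_at, the levels were 6.37, 7.37 and 6.56 in IL33 clones, 6.62 and 6.33 in DNLS clones, and 4.82 in the control. Here IL33 clones were 1.95 ± 0.39 SE above the control (adjusted p = 0.0398) and DNLS clones 1.66 ± 0.41 SE above it (adjusted p = 0.0233). MT1M did not pass the test between the constructs, with 0.63 ± 0.30 SE (adjusted p = 0.127) and 0.29 ± 0.31 SE (adjusted p = 0.469) for IL33 minus DNLS. On 11728398_x_at the ranges of the constructs overlapped, and on 11728397_at they did not. The increases against the control rested on the spread of all clones: without IL33 clone 9 the adjusted p in IL33 clones was 0.0766 and 0.0909, without either DNLS clone 0.144 and 0.161, and in DNLS clones it was 0.168 and 0.16 without DNLS clone 3 and 0.129 and 0.12 without DNLS clone 4.

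MT3 moved the other way. On 11753872_x_at MT3 was at 5.49, 5.49 and 5.70 in IL33 clones 3, 5 and 9, at 4.25 and 4.23 in DNLS clones 3 and 4, and at 7.12 in the control. The 3 groups did not overlap, with DNLS clones below background, IL33 clones between, and the control highest. MT3 was 0.34-fold of the control in IL33 clones (-1.56 ± 0.14 SE, adjusted p = 0.00713 in limma). As DNLS clones were not above background, their decrease has only a bound, at least 4.98-fold lower than the control, set by the background level in place of their own (measured difference -2.87 ± 0.14 SE, adjusted p = 0.000786). IL33 clones were likewise at least 1.69-fold above DNLS clones (measured 1.32 ± 0.11 SE, adjusted p = 0.000882). The probe set without the mark for shared probes, 11722608_at, gave 4.77, 4.66 and 4.83 in IL33 clones, 4.11 and 4.26 in DNLS clones, and 5.43 in the control. The order of the groups was the same, but only IL33 clone 9 and the control were above background. IL33 minus control was -0.68 ± 0.13 SE (adjusted p = 0.0387), and DNLS clones were at least 1.55-fold lower than the control (measured -1.25 ± 0.14 SE, adjusted p = 0.0026). The call on 11722608_at in IL33 clones did not pass without any 1 of the 3 IL33 clones (adjusted p of 0.0618 to 0.087), and no MT3 call in IL33 clones passed without either DNLS clone (0.103 and 0.116).

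MT1X and MT2A, a further MT1 gene and the only MT2 gene, were well above background on all arrays, and neither passed the test in IL33 clones against the control. MT1X on 11726385_a_at was at 9.60, 10.50 and 10.07 in IL33 clones 3, 5 and 9, at 8.76 and 8.74 in DNLS clones 3 and 4, and at 9.93 in the control. IL33 clones spread on both sides of the control, and both DNLS clones lay below every other array. The difference was 0.13 ± 0.32 SE in IL33 minus control (adjusted p = 0.877 in limma), -1.18 ± 0.34 SE in DNLS minus control (adjusted p = 0.0367, but 0.0676 without IL33 clone 9, and 0.181 and 0.185 without DNLS clone 3 or 4) and 1.31 ± 0.25 SE in IL33 minus DNLS (adjusted p = 0.00848, but 0.106 and 0.111 without DNLS clone 3 or 4). On 11757581_x_at, at 10.03, 10.86 and 10.47 in IL33 clones, 9.61 and 9.58 in DNLS clones and 10.29 in the control, IL33 minus DNLS was 0.86 ± 0.23 SE (adjusted p = 0.026, but 0.0712 without IL33 clone 9, and 0.181 and 0.192 without DNLS clone 3 or 4). DNLS minus control there was -0.69 ± 0.31 SE and did not pass (adjusted p = 0.126).

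MT1M and MT1X were the genes whose IL33 clones differed most from each other: their 4 probe sets had an SD of 0.416 to 0.535 over the 3 IL33 clones, and the other 16 had 0.0253 to 0.213. Clone 5 was the highest and clone 3 the lowest of the IL33 clones on all 4. Clone 5 was at the same time the IL33 clone with the lowest IL33 level, at 6.40 on the probe set named above. With 3 clones no relation between these values was tested.

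MT2A was near the top of what the arrays recorded. On 11753900_x_at it was at 13.73, 13.80 and 13.80 in IL33 clones 3, 5 and 9, at 13.59 and 13.54 in DNLS clones 3 and 4, and at 13.70 in the control. It ranked 6 of 49395 probe sets by mean level and was the highest value of the array in IL33 clones 5 and 9, so that a further increase may not have been measurable there. IL33 minus control was 0.07 ± 0.07 SE (adjusted p = 0.595 in limma) and DNLS minus control -0.14 ± 0.08 SE (adjusted p = 0.194). IL33 minus DNLS passed at 0.21 ± 0.06 SE (adjusted p = 0.0247, but 0.0814 without IL33 clone 9, and 0.0596 and 0.0873 without DNLS clone 3 or 4). The second probe set, 11758729_x_at, was at 7.09, 7.26 and 7.25 in IL33 clones, 7.52 and 7.38 in DNLS clones and 7.14 in the control. Its DNLS clones were the higher ones, opposite to 11753900_x_at, though IL33 minus DNLS did not pass (-0.25 ± 0.11 SE, adjusted p = 0.0969). It did pass after each array was centred on its median (-0.44, adjusted p = 0.0181) and after quantile normalization (-0.34, adjusted p = 0.0371), and DNLS minus control was 0.50 (adjusted p = 0.0358) and 0.41 (adjusted p = 0.0567) there.

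The promoters of MT2A, MT1X and MT1H are shown because MTF1 binds metal response elements in front of such genes. These were the only metallothionein members with a matched promoter, and were not chosen by their levels. MT2A had small differences, MT1X was lower in DNLS clones, and MT1H was below background. Each is the 250 bases before the gene's start from RefSeq on GRCh38.p14, on the forward strand of chromosome 16, at chr16:56608334-56608583 for MT2A, chr16:56682220-56682469 for MT1X and chr16:56669564-56669813 for MT1H. Capitals mark matches to TGCACNC or TGCGCNC, the core of the metal response element, on either strand. Of the 9 genes 4 were matched in the promoter table, the other one being MTF1.
MT2A: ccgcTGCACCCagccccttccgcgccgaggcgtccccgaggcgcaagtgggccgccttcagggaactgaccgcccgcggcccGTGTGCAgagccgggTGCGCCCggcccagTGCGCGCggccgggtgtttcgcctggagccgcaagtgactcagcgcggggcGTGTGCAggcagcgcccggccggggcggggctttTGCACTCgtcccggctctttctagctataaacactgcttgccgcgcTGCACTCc
MT1X: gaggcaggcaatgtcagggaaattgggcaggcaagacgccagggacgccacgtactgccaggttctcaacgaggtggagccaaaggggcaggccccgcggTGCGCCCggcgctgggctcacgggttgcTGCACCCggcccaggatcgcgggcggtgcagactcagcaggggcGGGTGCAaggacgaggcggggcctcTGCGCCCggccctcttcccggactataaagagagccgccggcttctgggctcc
MT1H: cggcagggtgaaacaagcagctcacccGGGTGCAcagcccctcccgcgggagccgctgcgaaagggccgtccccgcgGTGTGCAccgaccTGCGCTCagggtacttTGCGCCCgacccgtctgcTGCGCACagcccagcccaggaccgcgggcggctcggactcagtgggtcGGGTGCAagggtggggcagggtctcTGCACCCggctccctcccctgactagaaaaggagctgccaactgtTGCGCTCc
MT2A held 7 matches (5 on the shown strand and 2 on the other), MT1X held 4 (3 and 1), MT1H held 8 (5 and 3) and MTF1 held 0, and no matches overlapped. Of 35116 promoters of this length 24.8% held at least 1 match, 0.37% at least 4, 0.0313% at least 7 and 0.0171% at least 8. A match is a description of these letters and not a site of binding.

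MT1F, MT1E, MT1G and MT1H, the other members of the MT1 group, did not pass the test in IL33 clones against the control. MT1F was at 7.91, 8.25 and 8.15 on 11721878_x_at in IL33 clones 3, 5 and 9, at 7.05 and 6.86 in DNLS clones 3 and 4, and at 7.87 in the control. IL33 clones lay just above the control (0.23 ± 0.17 SE, adjusted p = 0.473 in limma) and DNLS clones below all other arrays (DNLS minus control -0.92 ± 0.18 SE, adjusted p = 0.0115, but 0.0591 and 0.0798 without DNLS clone 3 or 4). IL33 clones were 2.22-fold above DNLS clones there (1.15 ± 0.13 SE, adjusted p = 0.00188). The other MT1F probe set, 11721877_s_at, was at 8.32, 8.73 and 8.62 in IL33 clones, 8.58 and 8.28 in DNLS clones and 8.41 in the control, and its groups overlapped. It did not pass in any comparison, with 0.02 ± 0.21 SE for DNLS minus control (adjusted p = 0.952), so that the decrease of MT1F in DNLS clones was seen on 1 of its 2 probe sets.

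MT1E had 1 probe set, 11716413_x_at, at 8.01, 7.98 and 7.71 in IL33 clones 3, 5 and 9, 7.74 and 7.58 in DNLS clones 3 and 4, and 8.34 in the control. The control was above all 5 clones, and the constructs overlapped. The difference passed in DNLS clones (-0.68 ± 0.17 SE, adjusted p = 0.0239 in limma, but 0.0838 and 0.12 without DNLS clone 3 or 4) and not in IL33 clones (-0.44 ± 0.16 SE, adjusted p = 0.15). IL33 minus DNLS was 0.24 and did not pass, so a difference between these 2 changes was not shown.

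MT1G was higher than the control in all 5 clones on both of its probe sets above background. On 11717385_a_at it was at 7.22, 7.26 and 7.15 in IL33 clones 3, 5 and 9, 7.17 and 7.15 in DNLS clones 3 and 4, and 6.72 in the control. The test passed in DNLS clones (0.44 ± 0.12 SE, adjusted p = 0.0324 in limma) and came to an adjusted p of 0.0567 in IL33 clones (0.50 ± 0.11 SE). On 11717387_x_at the levels were 5.92, 5.87 and 5.90 in IL33 clones, 5.94 and 6.08 in DNLS clones and 5.51 in the control, with 0.39 ± 0.12 SE in IL33 (adjusted p = 0.111) and 0.50 ± 0.13 SE in DNLS (adjusted p = 0.0266). In DNLS clones 11717385_a_at did not pass without IL33 clone 3 or 9 (adjusted p = 0.0563 and 0.0535) or without DNLS clone 3 or 4 (0.0736 and 0.0665), and 11717387_x_at did not pass without IL33 clone 9 (0.0514) or DNLS clone 4 (0.0519). The third, 11717386_s_at, stayed below background, at 2.82 to 3.10 in IL33 clones, 2.49 and 2.58 in DNLS clones and 2.54 in the control. MT1H on 11731857_x_at was below background as well, at 2.93 to 3.14 in IL33 clones, 2.62 and 2.67 in DNLS clones and 3.08 in the control. These 2 probe sets passed between the constructs with IL33 clones higher (adjusted p = 0.0245 and 0.0159), and MT1H also passed as lower in DNLS clones than in the control (adjusted p = 0.0377, but 0.0558 without IL33 clone 5, and 0.115 and 0.0948 without DNLS clone 3 or 4), but no fold is given between levels under background.

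MTF1, the metal-sensing factor on chromosome 1, passed as lower in DNLS clones than in the control on 11751285_a_at and 11722388_at, and not on its other probe sets. All 5 MTF1 probe sets were higher in IL33 than in DNLS clones, by a measured 0.41 to 1.28 (adjusted p of 0.000764 to 0.015 in limma), 4 of them also after centring (without 11722390_a_at, 0.23, adjusted p = 0.0979), and none passed in IL33 clones against the control, where differences were 0.04 to 0.27. On 11751285_a_at MTF1 was at 7.37, 7.38 and 7.42 in IL33 clones 3, 5 and 9, at 6.06 and 6.16 in DNLS clones 3 and 4, and at 7.34 in the control. IL33 clones and the control lay close together, and both DNLS clones lay below them. This was 0.426-fold of the control in DNLS clones (-1.23 ± 0.12 SE, adjusted p = 0.00209) and 2.42-fold higher in IL33 than in DNLS clones (1.28 ± 0.09 SE, adjusted p = 0.000764). On 11722388_at, at 7.34, 7.37 and 7.46 in IL33 clones, 6.58 and 6.57 in DNLS clones and 7.13 in the control, DNLS minus control was -0.56 ± 0.12 SE (adjusted p = 0.0167, but 0.0535 and 0.0546 without DNLS clone 3 or 4). The other 3 did not pass in DNLS minus control, where 11722389_at was at -0.21 (adjusted p = 0.208) and 11722390_a_at at -0.36 (adjusted p = 0.0689). After centring 11722389_at was at -0.03 (adjusted p = 0.868 in limma) and 11722390_a_at at -0.17 (adjusted p = 0.325). The third, 11722391_at, was at 5.05, 5.40 and 5.05 in IL33 clones, 4.10 and 4.52 in DNLS clones and 5.05 in the control. Both DNLS clones were below background there, so that IL33 clones were at least 1.29-fold above them, and the measured DNLS minus control was -0.74 ± 0.24 SE (adjusted p = 0.0521), a bound of 1.19-fold.

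Since the DNLS arrays had a lower set of values as a whole, all comparisons with them were also computed with each array centred on its median and with quantile normalization. Over all probe sets the share of calls that were higher in DNLS minus control was 34.8% as deposited, 55.3% after centring and 50.5% after quantile normalization, and in IL33 minus DNLS it was 67.7%, 44.2% and 50.2%. The median of all probe sets in DNLS minus control moved to 0.06 and 0.02, against -0.12 as deposited. The 20 probe sets had 5 higher and 4 lower after centring and 4 higher and 8 lower after quantile normalization in DNLS minus control, and 8 higher and 2 lower, and 10 higher and 1 lower, in IL33 minus DNLS. Of all 49395 probe sets, 10752 were higher and 8680 lower after centring in DNLS minus control, and 9222 and 9026 after quantile normalization. In IL33 minus DNLS these numbers were 10134 and 12789, and 10508 and 10442. The median of the 20 probe sets was -0.21 and -0.34 in DNLS minus control and 0.26 and 0.39 in IL33 minus DNLS. MT1M higher and MT3 lower than the control, MT1F (11721878_x_at) and MTF1 (11751285_a_at) lower than the control, and both MT1G probe sets higher than the control in DNLS clones passed under both. MT1X (11726385_a_at) in DNLS minus control did not pass after centring (-1.0, adjusted p = 0.0579 in limma), nor did MT1E (adjusted p = 0.0592) or MTF1 11722388_at (adjusted p = 0.0591), and MT1H passed under neither scaling (0.166 after centring and 0.129 after quantile normalization). In IL33 minus DNLS the calls of MT1X 11757581_x_at (0.67, adjusted p = 0.0535) and MTF1 11722390_a_at were lost after centring, that of MT3 11722608_at after quantile normalization (adjusted p = 0.091), and those of MT1G 11717386_s_at (0.143 and 0.0925) and MT1H (0.108 and 0.121), both below background, under both. MT1G 11717387_x_at was lower in IL33 than in DNLS clones after centring (-0.30, adjusted p = 0.0485), as was MT2A 11758729_x_at under both. MT2A had no settled direction on 11753900_x_at: DNLS minus control was 0.05 after centring (adjusted p = 0.642) and -0.40 after quantile normalization (adjusted p = 0.0145), and IL33 minus DNLS was 0.03 (adjusted p = 0.721) and 0.48 (adjusted p = 0.00288).

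**Figure D3:**
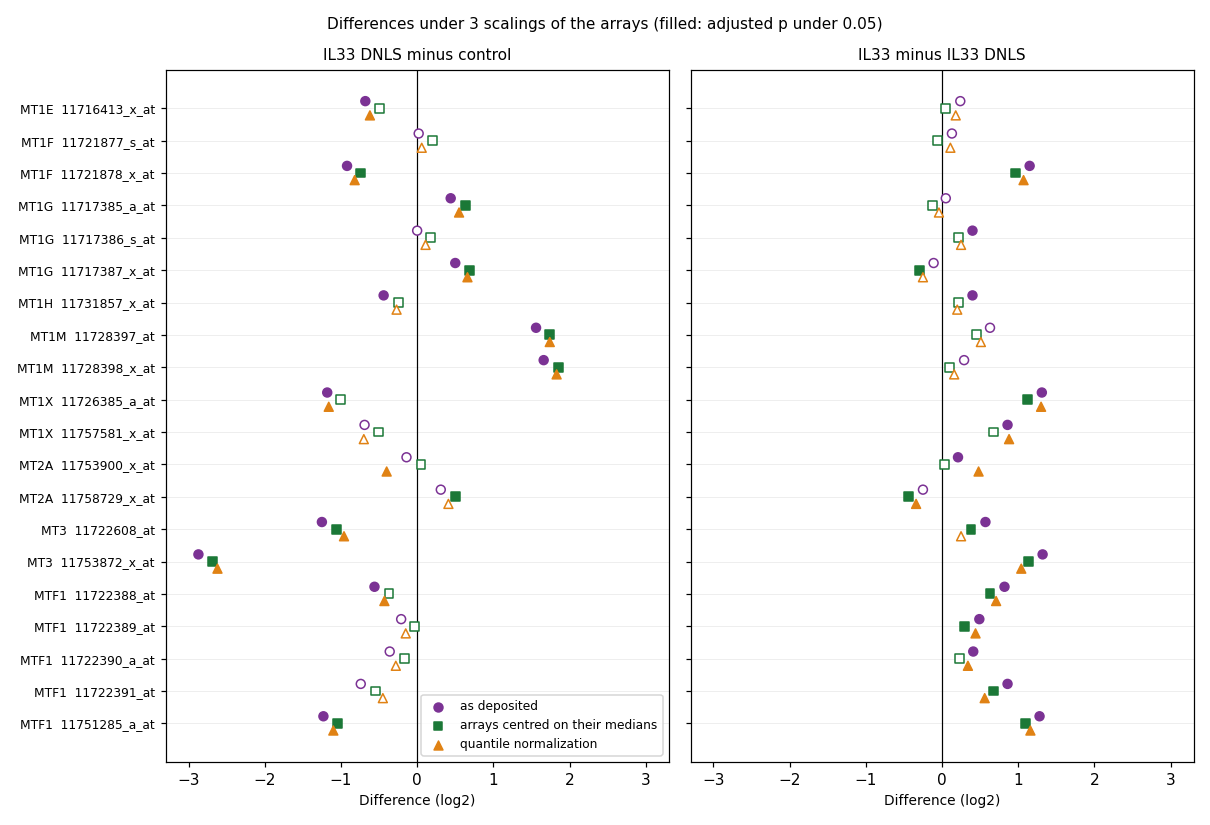
Differences (log2, horizontal axis) of the 20 probe sets (rows) in DNLS minus control (left) and IL33 minus DNLS (right) as deposited, with each array centred on its median, and with quantile normalization; filled points passed an adjusted p under 0.05 in limma. Against the control MT3 (11753872_x_at) lies left of 0 and MT1M right of 0 under all 3, while MT2A (11753900_x_at) lies at -0.14, 0.05 and -0.40.

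Other genes of metal handling and of the signals that raise metallothioneins were counted from lists, each gene by its probe set of highest mean. Over 18132 such probe sets 3.57% were higher and 3.92% lower in IL33 minus control, 14.8% and 23.3% in DNLS minus control, and 30.9% and 15.9% in IL33 minus DNLS. Of 10 ZnT genes, most of which carry zinc out of the cytosol, 1 was higher and 1 lower in IL33 clones against the control, and 2 and 2 in DNLS clones. SLC30A1, the plasma membrane zinc exporter and itself a target of MTF1, was at 10.24, 10.17 and 9.96 in IL33 clones, 9.93 and 10.05 in DNLS clones and 9.90 in the control, and did not pass in any comparison (IL33 minus control 0.23 ± 0.14 SE, adjusted p = 0.381 in limma). SLC30A7, which fills the Golgi with zinc, was 1.04 ± 0.15 SE above the control in IL33 clones (adjusted p = 0.0201) and 0.89 ± 0.16 SE in DNLS clones (adjusted p = 0.00849). SLC30A9 was -0.70 ± 0.11 SE in IL33 minus control (adjusted p = 0.0241) and -0.92 ± 0.12 SE in DNLS minus control (adjusted p = 0.00324). Without IL33 clone 9 neither passed in IL33 clones (adjusted p = 0.0684 and 0.0748), and SLC30A7 did not pass in DNLS clones without DNLS clone 3 or 4 (adjusted p = 0.0675 and 0.0569).

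Of 14 ZIP genes, which bring zinc into the cytosol, 1 was higher and 1 lower in IL33 clones against the control, and 3 and 3 in DNLS clones. SLC39A6 was at 10.35, 10.54 and 10.75 in IL33 clones, 10.17 and 10.06 in DNLS clones and 9.17 in the control. It was above the control in every clone, by 1.38 ± 0.16 SE in IL33 (adjusted p = 0.0132 in limma) and 0.95 ± 0.17 SE in DNLS (adjusted p = 0.00944). In DNLS clones SLC39A6 did not pass without DNLS clone 3 or 4 (adjusted p = 0.0824 and 0.0678). SLC39A4 was lower in IL33 clones than in the control (-0.95 ± 0.18 SE, adjusted p = 0.0378, but 0.0532 without IL33 clone 5 and 0.0995 without clone 9) and lay at the control's level in DNLS clones (0.01 ± 0.19 SE). SLC39A8, a carrier of zinc, manganese and cadmium, was -1.58 ± 0.26 SE in DNLS minus control (adjusted p = 0.00714, but 0.0767 and 0.0656 without DNLS clone 3 or 4), and -0.95 ± 0.25 SE in IL33 minus control did not pass (adjusted p = 0.0759). SLC39A14, the ZIP gene that inflammation raises in liver, spread widely over IL33 clones (10.90, 10.20 and 11.45) around the DNLS clones (10.62 and 10.60) and the control (10.62).

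Of 11 genes of copper handling 1 was higher and 0 lower in IL33 clones against the control, and 1 and 3 in DNLS clones. The 1 in IL33 clones was SLC31A2, a copper transporter (0.56 ± 0.11 SE, adjusted p = 0.0373 in limma, but 0.0656 without IL33 clone 3 and 0.101 without clone 9). CCS, the copper chaperone of superoxide dismutase, was 1.05 ± 0.14 SE above the control in DNLS clones (adjusted p = 0.00389). The 3 lower there were ATOX1 (-0.64 ± 0.14 SE, adjusted p = 0.0174), STEAP2 (-1.11 ± 0.33 SE, adjusted p = 0.0403) and ATP7B, the last below background. Neither ATOX1 nor STEAP2 passed without DNLS clone 3 or 4, nor STEAP2 without IL33 clone 3 or 9. Of 10 genes of NRF2 and metal stress 2 were higher and 0 lower in IL33 clones, and 2 and 1 in DNLS clones. The 1 lower was NFE2L2, the gene of NRF2 (-0.85 ± 0.18 SE, adjusted p = 0.0154 in limma), which did not pass without DNLS clone 3 or 4. NQO1 of this list was -0.75 ± 0.16 SE in IL33 minus DNLS (adjusted p = 0.013), where 2 of the 10 were higher and 2 lower. In IL33 minus control NQO1 was at -0.70 and did not pass (adjusted p = 0.0993). HMOX1, heme oxygenase, was at 12.19, 12.80 and 12.78 in IL33 clones 3, 5 and 9, 11.98 and 12.03 in DNLS clones 3 and 4, and 11.09 in the control, with the groups apart. It was 1.49 ± 0.24 SE above the control in IL33 clones (adjusted p = 0.0268) and 0.91 ± 0.26 SE in DNLS clones (adjusted p = 0.0363). Without IL33 clone 9 HMOX1 had an adjusted p of 0.076 in IL33 clones and 0.0513 in DNLS clones, and in DNLS clones 0.173 and 0.188 without DNLS clone 3 or 4. TXNRD1, thioredoxin reductase, was above the control by 0.53 in IL33 (adjusted p = 0.0371, but 0.103 without IL33 clone 9) and 0.98 in DNLS clones (adjusted p = 0.00243).

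Of 8 genes of the glucocorticoid response 0 were higher and 2 lower in IL33 clones against the control, and 2 and 2 in DNLS clones. TSC22D3, a glucocorticoid-induced gene, was -1.02 ± 0.14 SE in IL33 clones (adjusted p = 0.0186 in limma, but 0.0612 without IL33 clone 9) and -0.85 ± 0.15 SE in DNLS clones (adjusted p = 0.00849, but 0.0506 without DNLS clone 4). NR3C1, the glucocorticoid receptor, was -0.54 ± 0.11 SE in IL33 clones (adjusted p = 0.047, but 0.0576 without IL33 clone 5 and 0.119 without clone 9) and -0.96 ± 0.12 SE in DNLS clones (adjusted p = 0.00334). The 2 higher ones in DNLS clones were KLF9 and SGK1, which glucocorticoids raise. KLF9, a zinc finger transcription factor, was at 4.76, 4.02 and 5.40 in IL33 clones 3, 5 and 9, 5.77 and 5.94 in DNLS clones 3 and 4, and 3.12 in the control. Only IL33 clone 9 and the DNLS clones were above background, and DNLS clones were at least 2.08-fold above the control (measured 2.74 ± 0.51 SE, adjusted p = 0.00961, but 0.0882 and 0.0965 without DNLS clone 3 or 4). In IL33 minus control KLF9 had a measured 1.61 ± 0.48 SE and did not pass (adjusted p = 0.0993). SGK1, a kinase, was 0.70 ± 0.21 SE above the control in DNLS clones (adjusted p = 0.0429, but 0.0676 and 0.0764 without IL33 clone 3 or 9 and 0.0877 without DNLS clone 3), and 0.80 ± 0.20 SE in IL33 minus control did not pass (adjusted p = 0.0664). Of 8 measured genes of the heat shock response 1 was higher and 0 lower in IL33 clones, and 2 and 0 in DNLS clones. HSPH1, a chaperone of the HSP110 family, was 0.88 ± 0.12 SE above the control in IL33 clones (adjusted p = 0.0178) and 1.11 ± 0.09 SE above DNLS clones (adjusted p = 0.000943). Between the constructs, IL33 minus DNLS had 3 higher and 0 lower among the ZnT genes, 3 and 3 among the ZIP genes, 5 and 1 in copper handling, 2 and 2 in NRF2 and metal stress, 3 and 1 in the glucocorticoid response, and 3 and 2 in the heat shock response. Of the 3 ZnT genes SLC30A4 and SLC30A10 were below background on all 6 arrays, which left SLC30A6 (0.61 ± 0.09 SE, adjusted p = 0.00347). The counts also held SLC39A5 among the ZIP genes and ATP7B in copper handling, both below background in the groups compared, in IL33 minus DNLS and in DNLS minus control.

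The position of the genes was examined as well. The order along chromosome 16 was MT4, MT3, MT2A, MT1L, MT1E, MT1M, MT1JP, MT1A, MT1DP, MT1CP, MT1B, MT1F, MT1G, MT1H, MT1IP and MT1X. MT3, which was lower in clones of both constructs, and MT1M, which was higher, thus lie with MT2A, MT1L and MT1E between them. Of the 20 genes nearest to the cluster, 10 on each side, 13 had a mean above background. Among these 20 neighbours CPNE2 was higher (0.68 ± 0.13 SE, adjusted p = 0.0394 in limma) and MMP2, a matrix metalloproteinase, lower (-0.76 ± 0.16 SE, adjusted p = 0.0437) in IL33 clones against the control, and neither passed without IL33 clone 5 or clone 9 (adjusted p of 0.05 to 0.117), nor CPNE2 without clone 3 (0.0541). In DNLS clones against the control 3 neighbours were higher and 1 lower, and in IL33 against DNLS clones 3 were higher and 3 lower. For comparison, 14.8% of the 18132 genes passed as higher and 23.3% as lower in DNLS minus control. These shares were 30.9% and 15.9% in IL33 minus DNLS. Of the neighbours called in comparisons with DNLS clones, CES1P1, SLC12A3 and LPCAT2 were below background on all arrays. All 20 neighbours, those below background included, had median differences of 0.02, 0.20 and -0.05 in the 3 comparisons. The 548 genes of chromosome 16 above background, a set chosen by level, had 0.08, 0.18 and -0.12.

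MT3 on 11753872_x_at had the widest range over the 6 arrays of all 20 probe sets, 2.88. Among 11578 genes, those with the most similar pattern after removal of each gene's mean were KIF7, SORBS2, SOS2, C5 and KRT33B, with a root mean square difference of 0.136, 0.18, 0.187, 0.201 and 0.233 (log2) over 6 arrays. None of them lies on chromosome 16. SORBS2, for example, was at 7.27, 7.02 and 7.05 in IL33 clones, 5.87 and 5.68 in DNLS clones and 8.99 in the control. The 6 points share 3 constructs, so that the likeness rests mostly on the order of the group means.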

How the data were processed

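Levels were taken from the series table of 6 arrays. The authors prepared total RNA, amplified and labelled it from the 3′ end, and deposited 1 normalized log2 value per probe set and array. The submitters' processing notes name Partek 6.0, and the sources used here did not give the background correction, the normalization or the base of the log. Base 2 was inferred, since the highest value was 14.16. Arrays have no read depth, and their number limits the precision.

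All 49395 probe sets were fitted together by lmFit, followed by eBayes with a mean-variance trend, in limma 3.58.1 under R 4.3.3, as 3 group means over 6 arrays (3 residual and 2.98 prior degrees of freedom). Tests were two-sided, p-values were adjusted over all probe sets by the Benjamini-Hochberg method, and the threshold was 0.05. The study's own test was one for counts, at 2-fold and an FDR of 0.01, which array values do not suit, so limma was used and this threshold became an alternative. The fit was tested on simulated data with independent noise, few planted changes and no lower set of values on the DNLS arrays. That test therefore does not vouch for the comparisons with DNLS clones. Probe sets with several symbols (1832) or none (2569) named no gene. Every probe set of the 9 genes is reported, called or not, and related genes come from lists, of which up to 4 genes past the threshold with the smallest p in a comparison could be named. SLC30A1 and SLC39A14, which did not pass, and the markers CSF1R and SYT1 were named after their values were seen. The members and lists were chosen with earlier results of these data known. Where a group was below background on all its arrays, a bound was computed against the background level, if higher than its own.

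As alternatives, the fit was restricted to 2 groups, each clone was left out in turn, and the following were tried: eBayes without the trend or robust, centring, quantile normalization, only probe sets above background or with 1 symbol, 1 probe set per gene, and the stricter threshold. Promoters came from a RefSeq table of GRCh38.p14, matched by symbol.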

Additional observations from a re-analysis of the deposited data

Results flagged for a closer look

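Probe sets of the metallothionein pseudogene MT1JP, which lies next to MT1M, are outside the 9 genes and carried a signal above the control. The probe set 11753736_s_at, annotated to MT1JP, MT1M and MT1P3 together, was at 6.09, 6.79 and 6.14 in IL33 clones 3, 5 and 9, 6.14 and 5.90 in DNLS clones 3 and 4, and 4.51 in the control, which was below the background level of 4.80. Its difference was 1.83 ± 0.29 SE in IL33 minus control (adjusted p = 0.026 in limma) and 1.51 ± 0.31 SE in DNLS minus control (adjusted p = 0.0136), or at least 2.91-fold and 2.33-fold higher against the background level. The probe set 11763100_x_at, annotated to MT1JP alone, was at 5.34, 5.64 and 4.91 in IL33 clones, 6.06 and 5.76 in DNLS clones, and 3.94 in the control. Its difference was 1.36 ± 0.29 SE in IL33 minus control (adjusted p = 0.0475) and 1.98 ± 0.31 SE in DNLS minus control (adjusted p = 0.00571), or at least 1.41-fold and 2.16-fold higher. Both may share probes with MT1M, and no test here separates the RNA of these genes. In IL33 minus control neither passed without DNLS clone 3 or 4 (adjusted p = 0.135 and 0.16), 11753736_s_at did not pass without IL33 clone 9 (0.065), and 11763100_x_at did not pass without IL33 clone 3 or 5 (0.0892 and 0.0501). In DNLS minus control neither passed without DNLS clone 3 (0.112 and 0.0669) or without DNLS clone 4 (0.0855 and 0.0529).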

How the results depend on the processing

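Of the 20 probe sets, 4 passed in IL33 minus control, 12 in DNLS minus control and 13 in IL33 minus DNLS. Leaving out 1 clone at a time gave 0 to 3, 3 to 13 and 6 to 13. In IL33 minus control 0 passed without DNLS clone 3 or without DNLS clone 4, and 1 passed without IL33 clone 9. In DNLS minus control and in IL33 minus DNLS fewer passed without DNLS clone 3 or 4, of the 20 and of all probe sets. With a group left at 1 array, that array was taken to vary like the others. A fit of only IL33 and control arrays gave 0 in limma, with a smallest adjusted p of 0.0997 over all probe sets and 6 members at an unadjusted p under 0.05. At an adjusted p under 0.01 and a 2-fold change the counts were 1, 3 and 4 of the 20, beside 387, 5603 and 4162 of all 49395 probe sets. With 1 probe set per gene 9 of the 20 were tested, and 2, 5 and 5 of these 9 passed, the same probe sets that passed among the 9 as deposited. The remaining settings gave counts within 1.5 times of those over all 20.

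The direction turned only for probe sets that had not passed, except for HSPA8 in IL33 minus DNLS (0.05 after quantile normalization, against -0.22). Over the fits without 1 clone, IL33 minus control ran from -0.08 to 0.03 for MT1H (0.03 without IL33 clone 3), from -0.10 to 0.36 for MT1X 11726385_a_at and from -0.03 to 0.38 for MT1X 11757581_x_at (both lowest without IL33 clone 5). DNLS minus control ran from -0.13 to 0.17 for MT1F 11721877_s_at and from -0.05 to 0.04 for MT1G 11717386_s_at, which was at 0.18 after centring and 0.11 after quantile normalization. MT2A 11753900_x_at was at 0.05 after centring. IL33 minus DNLS ran from -0.02 to 0.49 for MT1M 11728398_x_at (lowest without IL33 clone 5) and from -0.02 to 0.28 for MT1F 11721877_s_at, which was at -0.06 after centring. MT1G 11717385_a_at was at -0.13 after centring and -0.04 after quantile normalization. The cause of these changes was not tested. No paired analysis was possible because the constructs share only 1 clone number and the control has none. The single control array and levels near background limit all comparisons with the control.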

Other observations

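The array held 9 further probe sets of metallothionein genes and pseudogenes outside the 9 genes and the 2 of MT1JP. MT1B, a member of the MT1 group, was at 5.68, 5.83 and 5.84 in IL33 clones 3, 5 and 9, 5.44 and 5.46 in DNLS clones 3 and 4, and 5.68 in the control. MT1B passed only between the constructs (IL33 minus DNLS 0.34 ± 0.10 SE, adjusted p = 0.0353 in limma). MT4, which is known from squamous epithelium, was below background on all arrays, between 4.20 and 4.58. Of 4 probe sets of the pseudogene MT1IP 1 was above background on all arrays, at 5.64 to 5.86 in IL33 clones, 5.83 and 5.93 in DNLS clones and 5.49 in the control, and did not pass in any comparison.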
